A study of Mus musculus with 12 samples.

Results

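General macrophage genes were read out in RNA from cells sorted as endothelium, the cell layer that lines blood and lymph vessels. They are 10 genes widely used to mark macrophages: the surface molecules Adgre1, Csf1r, Ptprc and Mrc1, the signalling adaptors Fcer1g and Tyrobp, and the lysosomal and secreted products Cd68, Lyz2, C1qa and C1qb. The 10 symbols were chosen with earlier results of these data known. Each matched 1 of the 27825 genes in the deposited table, and all 10 were among the 22238 genes tested, those with a mean of at least 10 normalized counts over the 12 libraries.

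All cells came from male mice of the genotype ROSA26-eYFP+/+ Cdh5-CreERT2+. In these mice tamoxifen activates a Cre recombinase placed under the control of Cdh5, an endothelial cadherin gene, and Cre switches on a yellow fluorescent protein (YFP). Tamoxifen was fed to every group over 2 weeks, starting at an age of 6 weeks. Then, at 8 weeks, mice were put on normal chow with 5.8% fat or on a high fat diet with 60% fat, which they ate for another 12 to 13 weeks. The tissues were the mesentery, the membrane of the gut's vessels, and the epididymal fat pads. Both were dissociated with an enzyme while actinomycin D blocked transcription, and red cells were lysed. A sample pooled 6 mice, and viable YFP-positive cells were sorted from it. The labels name YFP and a viability dye for the sort; whether leukocytes were gated out is not given in the sources used here. There were 4 groups of 3 libraries: chow mesentery, high fat mesentery, chow epididymal fat and high fat epididymal fat, each with replicates A, B and C. The labels also number the libraries, and each number is shared by a mesentery and an epididymal library of the same diet. They speak of 2 independent replicates, and the numbers fall in 2 ranges, 50 to 53 and 87 to 88. How these relate to the letters is not stated, so n = 3 counts libraries and p-values measure the spread between them.

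Macrophages are tissue-resident phagocytes, and adipose tissue is known to hold more of them in obesity. Their growth and survival depend on the receptor encoded by Csf1r, which binds the cytokines CSF1 and IL34. Activating receptors without signalling motifs of their own couple to the adaptors encoded by Fcer1g and Tyrobp, which carry an immunoreceptor tyrosine-based activation motif (ITAM) and recruit the kinase SYK. Many genes of the lineage are regulated by the transcription factor PU.1, encoded by Spi1.

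Promoter windows of the macrophage genes are shown with the core sequence that PU.1 recognises. A part of PU.1 in the levels of these genes was not tested. Windows of 300 bases, from 250 before to 50 after the start site, were taken from the RefSeq table (GRCm38.p6). The search covered 7 windows of 6 of the 10 genes, 2 of them of Ptprc. Windows of these genes on the chromosome of Csf1r were left out, so Csf1r was not searched. The share of all windows kept that chromosome. The 6-base core GAGGAA, searched on both strands (TTCCTC on the other), occurred in 4 of the 7 windows, those of Cd68, C1qb and Mrc1 and 1 of the 2 of Ptprc, against 28.3% of all 32851 windows of that length. The 250 bases upstream of the start site are printed 5′ to 3′ on the gene's strand, with each match on either strand in capitals. A second match of Cd68 lies downstream of its start site, outside the printed stretch.
Cd68 (chr11:69666171-69666420, minus strand): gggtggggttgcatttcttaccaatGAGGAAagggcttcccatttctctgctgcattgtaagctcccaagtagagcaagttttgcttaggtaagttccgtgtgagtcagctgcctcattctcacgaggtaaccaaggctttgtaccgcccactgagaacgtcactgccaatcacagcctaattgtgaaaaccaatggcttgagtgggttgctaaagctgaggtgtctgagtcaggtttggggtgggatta
C1qb (chr4:136886201-136886450, minus strand): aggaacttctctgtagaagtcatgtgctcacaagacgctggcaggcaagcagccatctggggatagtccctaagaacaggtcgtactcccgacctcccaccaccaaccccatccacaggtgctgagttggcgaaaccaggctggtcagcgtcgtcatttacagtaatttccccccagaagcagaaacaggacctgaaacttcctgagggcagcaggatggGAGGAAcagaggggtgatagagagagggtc
Mrc1 (chr2:14229164-14229413, plus strand): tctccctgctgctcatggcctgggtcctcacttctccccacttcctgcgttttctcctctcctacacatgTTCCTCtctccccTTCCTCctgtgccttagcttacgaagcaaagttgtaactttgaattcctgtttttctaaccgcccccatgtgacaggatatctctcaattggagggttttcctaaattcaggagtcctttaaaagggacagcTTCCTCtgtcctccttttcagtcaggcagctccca
Ptprc (chr1:138175306-138175555, minus strand): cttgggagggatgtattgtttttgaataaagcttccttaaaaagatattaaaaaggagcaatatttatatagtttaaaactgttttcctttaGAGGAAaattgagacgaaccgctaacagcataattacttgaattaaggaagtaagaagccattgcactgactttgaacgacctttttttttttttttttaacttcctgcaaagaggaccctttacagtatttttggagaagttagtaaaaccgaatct
Mrc1 had 3 matches, all on the reverse strand, with the nearest ending 30 bases before the start site. The match of C1qb began 30 bases before the start site, that of Ptprc 158 bases before it, and the upstream match of Cd68 225 bases before it. The core TGTGGT recognised by RUNX factors (ACCACA on the other strand) occurred in 2 of the 7 windows, those of Fcer1g and Lyz2, against 16.8% of all windows. None of the 7 windows searched held both cores. The matches describe the sequence and are not measured binding sites.

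The libraries held between 8348897 and 25397963 reads assigned to listed genes, and a floor of 3 reads corresponds to 2.12 to 4.22 normalized counts, which covers counting error only. Endothelial markers were present in all 12 libraries: Cdh5 ranged from 2172 to 4822 normalized counts, Pecam1 from 3730 to 12974 and Kdr from 2347 to 25939. The summed level of 16 endothelial genes ran from 156596 to 235327 in chow mesentery, from 148840 to 174766 in high fat mesentery, from 102742 to 120310 in chow epididymal fat and from 56311 to 107550 in high fat epididymal fat. The general leukocyte list (10 genes, Ptprc among them) summed to 1816 to 7072, 3663 to 17834, 3797 to 18981 and 20413 to 61151 in the same order of groups. Libraries of 1 group differed widely in the macrophage genes. Replicate B of chow epididymal fat was the highest of its group for all 10 genes, and its leukocyte sum of 18981 stood against 3797 and 5240 in the other two. Replicate C of high fat mesentery was the highest of its group for 7 of the 10 genes, and its 10 B and plasma cell genes summed to 31342 against 308 to 514 in the other mesentery libraries. Signs of library quality differed too. The mitochondrial share of reads was 5.67% to 20.6% in chow mesentery, 5.96% to 10.1% in high fat mesentery, 2.50% to 3.73% in chow epididymal fat and 3.07% to 5.94% in high fat epididymal fat. Olfactory and vomeronasal receptor genes (645 genes, which these tissues are not known for) summed to 24217 and 28396 normalized counts in the 2 epididymal libraries numbered 87 and 88. They summed to 1492 to 3272 in the other 4 epididymal libraries. In mesentery the sum did not follow the number range. It was 35332 in chow replicate C (number 87) but 7801 in high fat replicate A (number 88). Chow replicate A (number 50) had 17321 and high fat replicate C (number 53) 26616.5. Results that changed without one of these libraries are given with and without it.

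The macrophage genes were lowest in chow mesentery and highest in high fat epididymal fat, by group mean, for all 10 genes. Their summed level was 5050 ± 5031 normalized counts in chow mesentery, 17612 ± 10398 in high fat mesentery, 35802 ± 46377 in chow epididymal fat and 236377 ± 111978 in high fat epididymal fat (SD, n = 3). Lyz2 was the largest term of each. Between these ends, the mean was higher in chow epididymal fat than in high fat mesentery for 8 genes and lower for Ptprc and Cd68, but the libraries of these 2 groups overlapped for all 10. In bulk RNA, fewer cells of a type and less RNA per cell cannot be told apart.

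**Figure D1:**
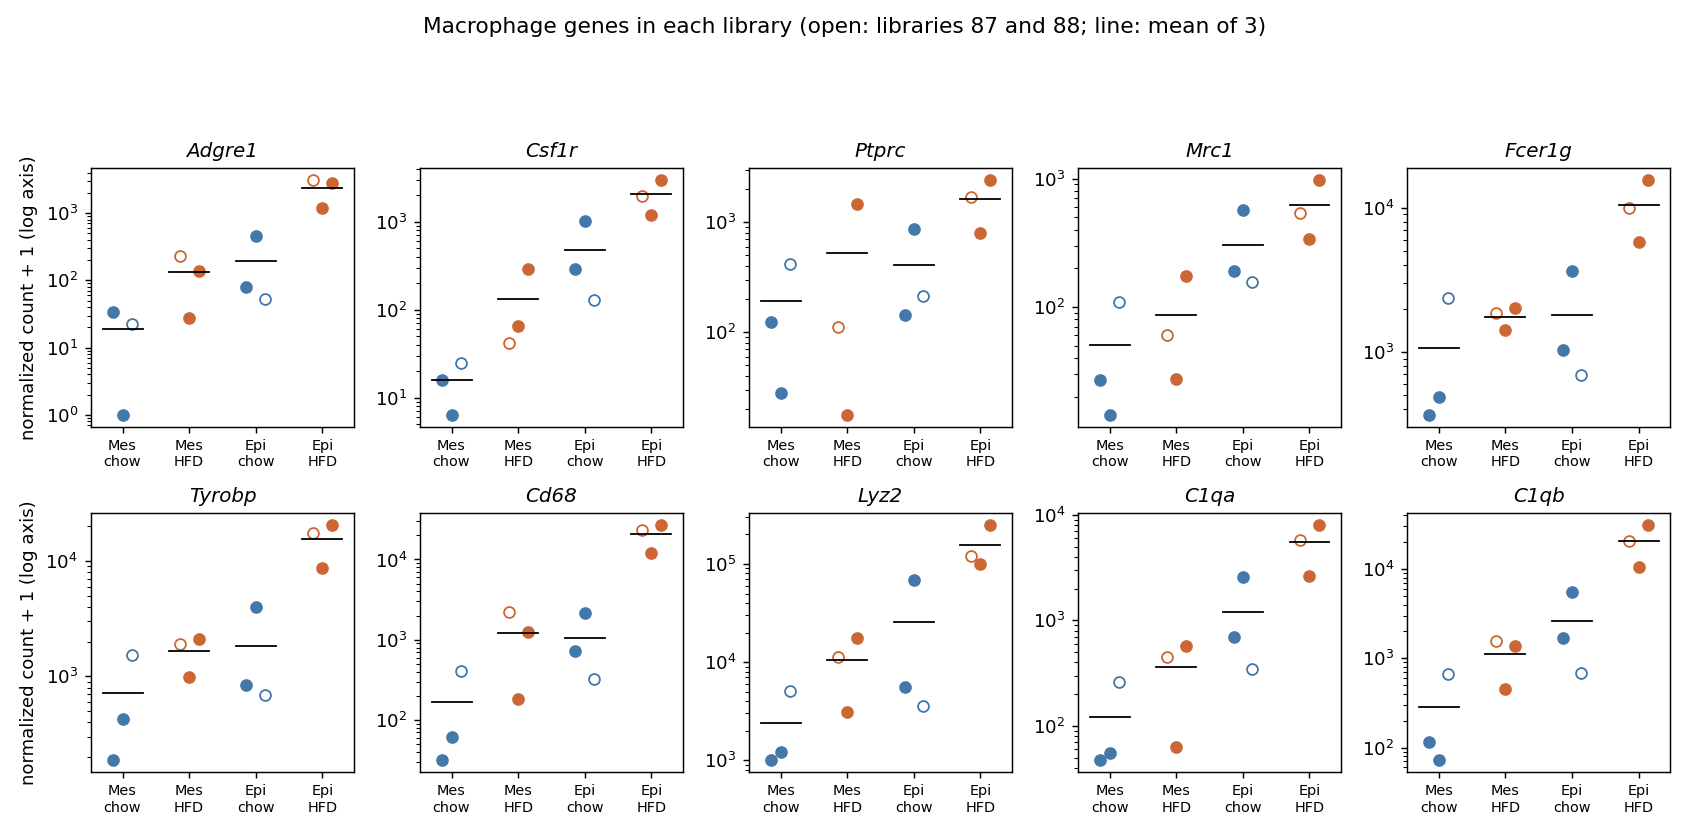
Normalized count + 1 of each macrophage gene (log axis) in the 12 libraries by group; points are libraries, open points are those numbered 87 or 88, and lines are means of 3. All 10 genes have their highest mean in high fat epididymal fat, and in chow epididymal fat replicate B (the middle point) lies above the other two for every gene.

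Counts were also divided by the joined length of all annotated exons of a gene, from 667 bases for Tyrobp to 18313 for Ptprc. This is not the length of a single transcript, and the order of the genes depends on it. Per kilobase of exon, Lyz2 was the most abundant of the 10 in every group. In high fat epididymal fat it had 119070 ± 61431 normalized counts per kilobase (SD, n = 3). Tyrobp (23405 ± 9220), C1qb (19111 ± 9429), Cd68 (16396 ± 6123) and Fcer1g (12007 ± 5624) followed there with spreads that overlapped their neighbours. C1qa came next at 5279 ± 2589. The receptors were far less abundant: Adgre1 had 734 ± 320, Csf1r 354 ± 158, Mrc1 97.0 ± 51.2 and Ptprc 89.7 ± 45.0 per kilobase. In chow mesentery the 3 most abundant were Lyz2 (1838 ± 1729), Fcer1g (1224 ± 1280) and Tyrobp (1076 ± 1089), and Csf1r was the lowest at 2.55 ± 1.61.

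On the high fat diet, the macrophage genes of epididymal fat endothelium lay above chow in 10 of 10 cases, by a median of 3.09 on the log2(normalized count + 1) scale (1.13 for Mrc1 to 4.62 for Cd68; median of all genes 0.10). None of the 10 passed limma's test at an adjusted p under 0.05, a threshold that 0.418% of all genes passed as higher. At an unadjusted p under 0.05, 8 of 10 were higher, against 3.84% of all genes. All 3 high fat libraries lay above all 3 chow libraries for 8 of 10 genes, the exceptions being Ptprc and Mrc1, against 6.93% of all genes.

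Among the surface molecules, Adgre1, the adhesion receptor F4/80, was at 77.5, 460 and 51.1 normalized counts in chow epididymal replicates A, B and C, and at 3112, 1191 and 2824 on the high fat diet. The lowest high fat library was 2.59 times the highest chow library, and the log2 difference was 4.15 ± 1.20 (SE; adjusted p = 0.204). Csf1r, the receptor of the growth factors CSF1 and IL34, was at 290, 1031 and 128 on chow and at 1966, 1179 and 2994 on the high fat diet. Its groups were separated only by the narrow step from 1031 to 1179 (log2 difference 2.50 ± 0.80, adjusted p = 0.283). Ptprc, which encodes the leukocyte phosphatase CD45, was at 143, 871 and 211 on chow and at 1693, 795 and 2440 on the high fat diet, and the groups overlapped. Mrc1, the mannose receptor CD206, which lymphatic endothelium also expresses, was at 188, 573 and 156 on chow and at 540, 339 and 976 on the high fat diet. It overlapped as well and had the smallest difference of the 10 (1.13 ± 0.79, adjusted p = 1).

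Both ITAM adaptors were separated by diet in epididymal fat. Tyrobp, which encodes DAP12, was at 833, 4001 and 682 on chow and at 17516, 8735 and 20583 on the high fat diet, a log2 difference of 3.48 ± 0.73 with an adjusted p of 0.0585 by limma. Fcer1g, the Fc receptor gamma chain, was at 1029, 3667 and 695 on chow and at 10008, 5840 and 15635 on the high fat diet (2.81 ± 0.67, adjusted p = 0.108). In both genes, as in all 10, replicate B was the highest of the chow libraries and the lowest of the high fat libraries.

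Among the lysosomal and secreted products, Cd68 had the widest separation of the 10 genes, the lowest high fat library at 5.57 times the highest chow library, while for Lyz2 this ratio was 1.46, for C1qb 1.93 and for C1qa 1.02. Cd68, a glycoprotein of late endosomes and lysosomes, was at 715, 2154 and 325 on chow and at 22983, 12006 and 26841 on the high fat diet. The ratio of group means was 19.4, the largest of the 10, and the log2 difference was 4.62 ± 0.99 (adjusted p = 0.0620). Lyz2, the lysozyme of myeloid cells, was at 5582, 68477 and 3612 on chow and at 120783, 100031 and 249273 on the high fat diet (3.70 ± 0.97, adjusted p = 0.158). Its chow values spanned 19.0-fold, the widest range within that group. Reads of Lyz2 and its near copy Lyz1 may be shared out between them, so the split is uncertain; Lyz1 was at 58.0, 14425 and 28.6 on chow and at 1716, 3345 and 10901 on the high fat diet.

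C1qa and C1qb encode 2 chains of C1q, the recognition molecule of the classical complement pathway, which macrophages are a main source of. C1qa was at 696, 2595 and 349 on chow and at 5821, 2648 and 8001 on the high fat diet (2.53 ± 0.90, adjusted p = 0.385). Here the highest chow and the lowest high fat library were nearly level, at 2595 and 2648. C1qb was at 1671, 5466 and 677 on chow and at 20715, 10573 and 31091 on the high fat diet (3.37 ± 0.83, adjusted p = 0.130), with no overlap.

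The epididymal diet difference was seen in both ranges of library numbers. Among libraries 50 to 53, 0 of the 10 and 14 of 19363 genes were called higher. There the difference was positive for 10 of 10 genes with a median of 2.44 (0.81 to 3.85). Between libraries 87 and 88, with 1 library a diet and no test, it was positive for 10 of 10 with a median of 4.37 (1.78 to 6.14). Without replicate B of the chow group, 5 of the 10 passed limma's test: Fcer1g, Tyrobp, Cd68, Lyz2 and C1qb. In that fit 127 of 22562 genes passed as higher. DESeq2 on the recovered reads called 2 of the 10 (Tyrobp and Cd68) and 340 of 22238 genes as higher. Called by edgeR were 0 of the 10 with either scaling. It called few genes at all as higher, 19 of 22238 with TMM and 48 with the deposited size factors.

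**Figure D2:**
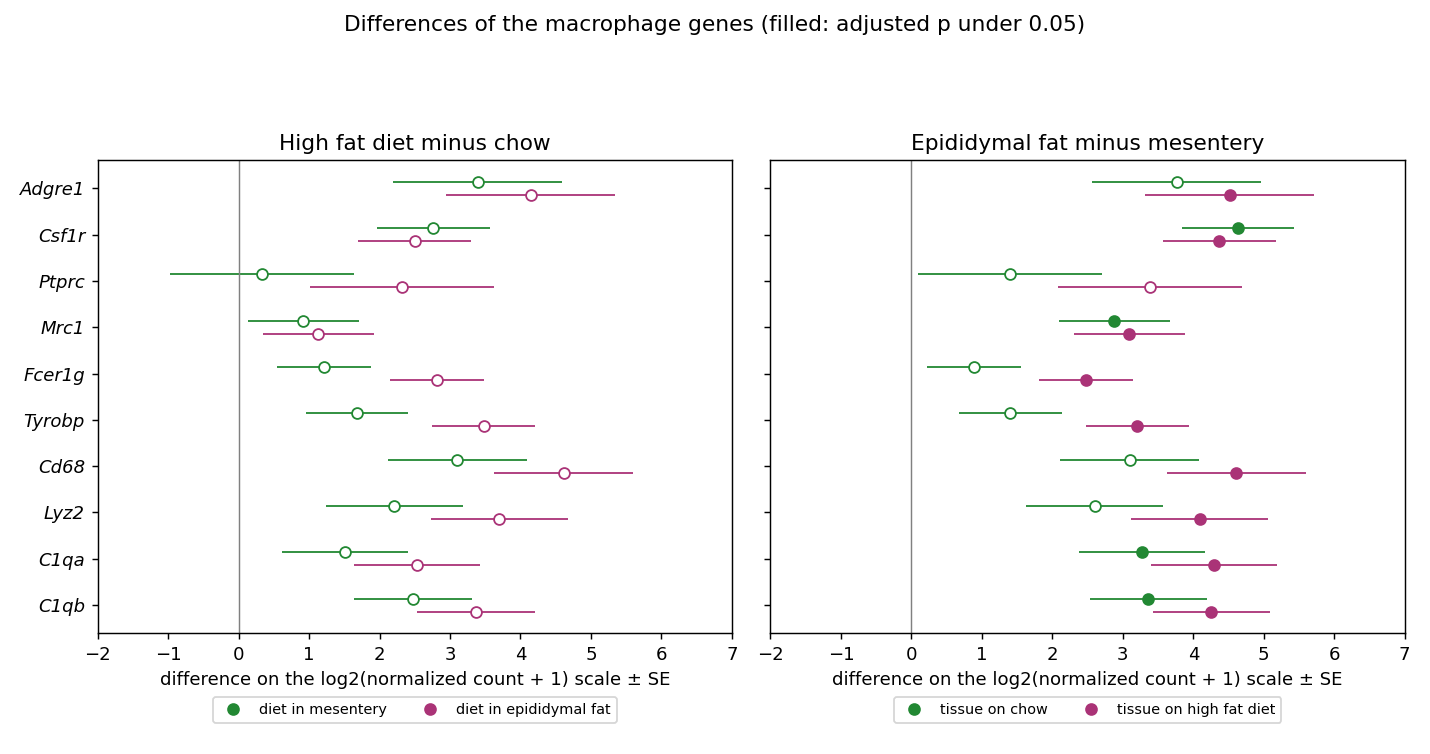
Difference of each macrophage gene on the log2(normalized count + 1) scale with its SE (horizontal bars), for diet in each tissue (left) and for tissue on each diet (right); filled points passed an adjusted p under 0.05. No point is filled on the left, while on the right 4 genes are filled for chow and 9 for the high fat diet.

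In mesentery endothelium the diet difference was also positive for 10 of 10 genes, with a median of 1.94 (0.33 for Ptprc to 3.39 for Adgre1; median of all genes 0.00 after rounding). None passed limma's test, which 0.00899% of all genes passed as higher, and 6 of 10 were higher at an unadjusted p under 0.05, against 3.51% of all genes. Csf1r alone had no overlap between diets, against 4.47% of all genes higher without overlap. It was at 14.8, 5.38 and 23.9 on chow and at 41.2, 63.8 and 289 on the high fat diet (2.77 ± 0.80, adjusted p = 0.543).

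The other 9 genes overlapped between diets in mesentery, most of them through replicate C of chow and replicate B of the high fat diet. Adgre1 was at 33.0, 0 and 21.1 on chow, its replicate B holding no read, which allows up to 2.69 normalized counts, and at 229, 26.3 and 137 on the high fat diet (3.39 ± 1.20, adjusted p = 0.670). Cd68 was at 30.7, 60.9 and 405 on chow and at 2210, 183 and 1243 on the high fat diet (3.10 ± 0.99, adjusted p = 0.617). Lyz2 was at 1004, 1210 and 5043 on chow and at 11293, 3085 and 17422 on the high fat diet.

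Replicate C of chow was the highest of its group for 9 of 10 genes and replicate B of the high fat diet the lowest of its group for 9 of 10. Tyrobp was at 187, 421 and 1546 with chow against 1921, 992 and 2108 with the high fat diet, and Fcer1g at 366, 484 and 2360 against 1852, 1415 and 2008; these 2 libraries overlapped in both genes. C1qb was at 116, 71.7 and 666 on chow and at 1552, 452 and 1384 on the high fat diet, and C1qa at 46.7, 54.7 and 262 and at 446, 62.4 and 574. Mrc1 was at 26.2, 13.4 and 108 on chow and at 59.9, 26.3 and 173 on the high fat diet, again with overlap.

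Ptprc was at 123, 26.9 and 420 on chow mesentery and at 111, 16.6 and 1461 on the high fat diet. Its positive difference rested on the last library, which also held the B and plasma cell genes: without it the log2 difference was -1.35, and without replicate B of chow it was -0.68.

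Among mesentery libraries 50 to 53, 0 of the 10 and 19 of 19363 genes were called higher for diet. There the diet difference was positive for 10 of 10 genes with a median of 2.55 (1.45 to 3.77). Between libraries 87 and 88 it was positive for 7 of 10, with a median of 0.76 (-1.91 to 3.38), and below 0 for Ptprc, Mrc1 and Fcer1g. DESeq2 called 1 of the 10, Csf1r (adjusted p = 0.0200), and 116 of 22238 genes as higher. Called by edgeR were 0 of the 10 with either scaling. Of all 22238 genes it called 0 as higher with TMM and 1 with the deposited size factors.

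The diet difference was larger in epididymal fat than in mesentery for 9 of 10 genes, against 56.3% of all genes. The difference between the tissues did not pass the test for any of the 10. The median interaction was 1.25 on the log2 scale (Csf1r -0.27 to Ptprc 1.99), against 0.11 for all genes. By limma 0 of the 10 passed at an adjusted p under 0.05 (0.00450% of all genes). At an unadjusted p under 0.05 it was 0 as well (4.71% of all genes). The largest interactions of the genes other than Ptprc were those of Tyrobp (1.80 ± 1.03, adjusted p = 1.00) and Fcer1g (1.60 ± 0.95, adjusted p = 1.00). The SE of a single gene's interaction was between 0.95 and 1.85. Of 22238 genes, DESeq2 called 132 for the interaction and edgeR 1 with either scaling. Both called 0 of the 10, with medians of 0.67 by DESeq2 and of 0.52 (TMM) and 0.62 (deposited size factors) by edgeR. The median rested on single libraries and on the number range. It was 0.34 without chow mesentery replicate C, 0.39 without high fat mesentery replicate B, 0.52 without chow epididymal replicate C and 2.03 without chow epididymal replicate B. Among libraries 50 to 53 it was 0.083, and 5 of the 10 interactions lay above 0 and 5 below.

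Between tissues, 4 of the 10 macrophage genes passed the test as higher in epididymal fat endothelium on chow, and 9 of 10 on the high fat diet. On chow, 10 of 10 differences lay above 0, with a median of 2.99 (0.88 for Fcer1g to 4.64 for Csf1r; median of all genes -0.08), and the 4 that passed limma's test stood against 7.32% of all genes higher. They were Csf1r (4.64 ± 0.80, adjusted p = 0.00201), C1qb (3.36 ± 0.83, adjusted p = 0.0176), C1qa (3.28 ± 0.90, adjusted p = 0.0285) and Mrc1 (2.88 ± 0.79, adjusted p = 0.0291). These 4 and Adgre1 had no overlap between tissues, against 16.0% of all genes. For Csf1r the chow libraries ran from 5.38 to 23.9 in mesentery and from 128 to 1031 in epididymal fat.

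Neither adaptor passed on chow: Fcer1g ran from 366 to 2360 in mesentery and from 695 to 3667 in epididymal fat (0.88 ± 0.67), and Tyrobp from 187 to 1546 and from 682 to 4001 (1.41 ± 0.73). Cd68 (3.10 ± 0.99, adjusted p = 0.0565), Adgre1 (3.76 ± 1.20, adjusted p = 0.0574) and Lyz2 (2.60 ± 0.97, adjusted p = 0.104) missed the threshold, with wider errors. Ptprc differed by 1.40 ± 1.31.

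The chow tissue difference depended on the range of library numbers. Among libraries 50 and 51 it was positive for 10 of 10 genes, with a median of 4.43 (2.21 to 5.77) and 9 called. In that fit 2340 of 19363 genes were called higher, against 1627 of 22238 with all libraries. Between the mesentery and epididymal libraries numbered 87 the tissue difference was positive for 5 of 10, with a median of -0.15 (-1.76 to 2.37). Csf1r, Adgre1, Mrc1, C1qa and C1qb were above 0, and Fcer1g, Tyrobp, Ptprc, Lyz2 and Cd68 below it. The libraries numbered 87 had the highest olfactory and vomeronasal sum of each chow group, 35332 in mesentery and 24217 in epididymal fat, and the mitochondrial share was higher in each chow mesentery library than in any chow epididymal library. The part of these in the tissue difference was not tested. The count of 4 moved with single libraries, to 8 without replicate C (number 87) of mesentery and 7 without that of epididymal fat, to 2 without mesentery replicate A, and to 1, Csf1r, without mesentery replicate B or epididymal replicate A or B. In these fits without 1 library, 814 to 1768 genes were called higher, of 21460 to 22580 tested. edgeR with the deposited size factors called 2 of the 10, and 1348 of 22238 genes as higher.

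On the high fat diet the tissue difference was positive for 10 of 10 genes with a median of 4.17 (2.48 for Fcer1g to 4.61 for Cd68; median of all genes 0.06), and 9 of 10 passed, against 4.91% of all genes higher. Cd68 had the largest difference (4.61 ± 0.99, adjusted p = 0.0119), and Csf1r (4.37 ± 0.80, adjusted p = 0.00453) and C1qb (4.26 ± 0.83, adjusted p = 0.00704) the smallest adjusted p. Tyrobp (3.20 ± 0.73, adjusted p = 0.0167) and Fcer1g (2.48 ± 0.67, adjusted p = 0.0369) were among them. The same 9 genes had no overlap between tissues, against 15.1% of all genes, and Ptprc overlapped through high fat mesentery replicate C (3.38 ± 1.31, adjusted p = 0.145).

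This difference was of like size in both number ranges: the median was 4.10 among libraries 52 and 53 (2.50 to 5.23; 7 called) and 3.56 between the libraries numbered 88 (2.43 to 5.54), positive for 10 of 10 in each. Among libraries 52 and 53, 1664 of 19363 genes were called higher. The count of 9 fell to 2 without mesentery replicate B or without epididymal replicate C. In these fits 451 of 22365 and 358 of 22463 genes were called higher. By edgeR with TMM scaling the count was 5, with 590 of 22238 genes called higher.

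The 4 comparisons of diet and tissue share groups, so their values for a gene are not independent of each other. Side by side, the tissue differences of the adaptors Fcer1g and Tyrobp were 0.88 and 1.41 on chow and 2.48 and 3.20 on the high fat diet, while those of Csf1r were 4.64 and 4.37.

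Ratios between macrophage genes within a library were compared for 6 pairs, chosen after their values were seen, with a test that 3 against 3 libraries could not pass. In epididymal fat the ratio of Mrc1 to Adgre1 ran from 1.25 to 3.06 on chow and from 0.173 to 0.346 on the high fat diet. Cd68 to Csf1r ran from 2.09 to 2.54 on chow, a narrow range over libraries whose Csf1r counts differed 8.08-fold, and from 8.97 to 11.7 on the high fat diet. Fcer1g to Tyrobp ran from 0.917 to 1.24 and from 0.571 to 0.760, and C1qa to C1qb from 0.417 to 0.516 and from 0.250 to 0.281. The diets did not overlap in these 4 ratios. The exact permutation test (two-sided) gave p = 0.1 for each, the smallest that 3 against 3 libraries allow, and 0.275 after adjustment over 11 tests of 6 ratios. The other 2 ratios, C1qa to C1qc and Lyz2 to Ptprc, overlapped between diets in epididymal fat (p = 0.2 each by the exact permutation test). In mesentery the diets overlapped in all 6 ratios, and the 5 tested gave exact permutation p from 0.2 to 1. Over all pairs of the 10 genes, the diets did not overlap for 29 of 45 pairs (64.4%) in epididymal fat, and for 7 of the 36 pairs with reads in every library (19.4%) in mesentery. Pairs share genes, and the share for pairs of other genes was not computed, so these counts only describe the 10 genes. Ratios use counts in the same library, so the scaling of libraries does not enter them.

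**Figure D3:**
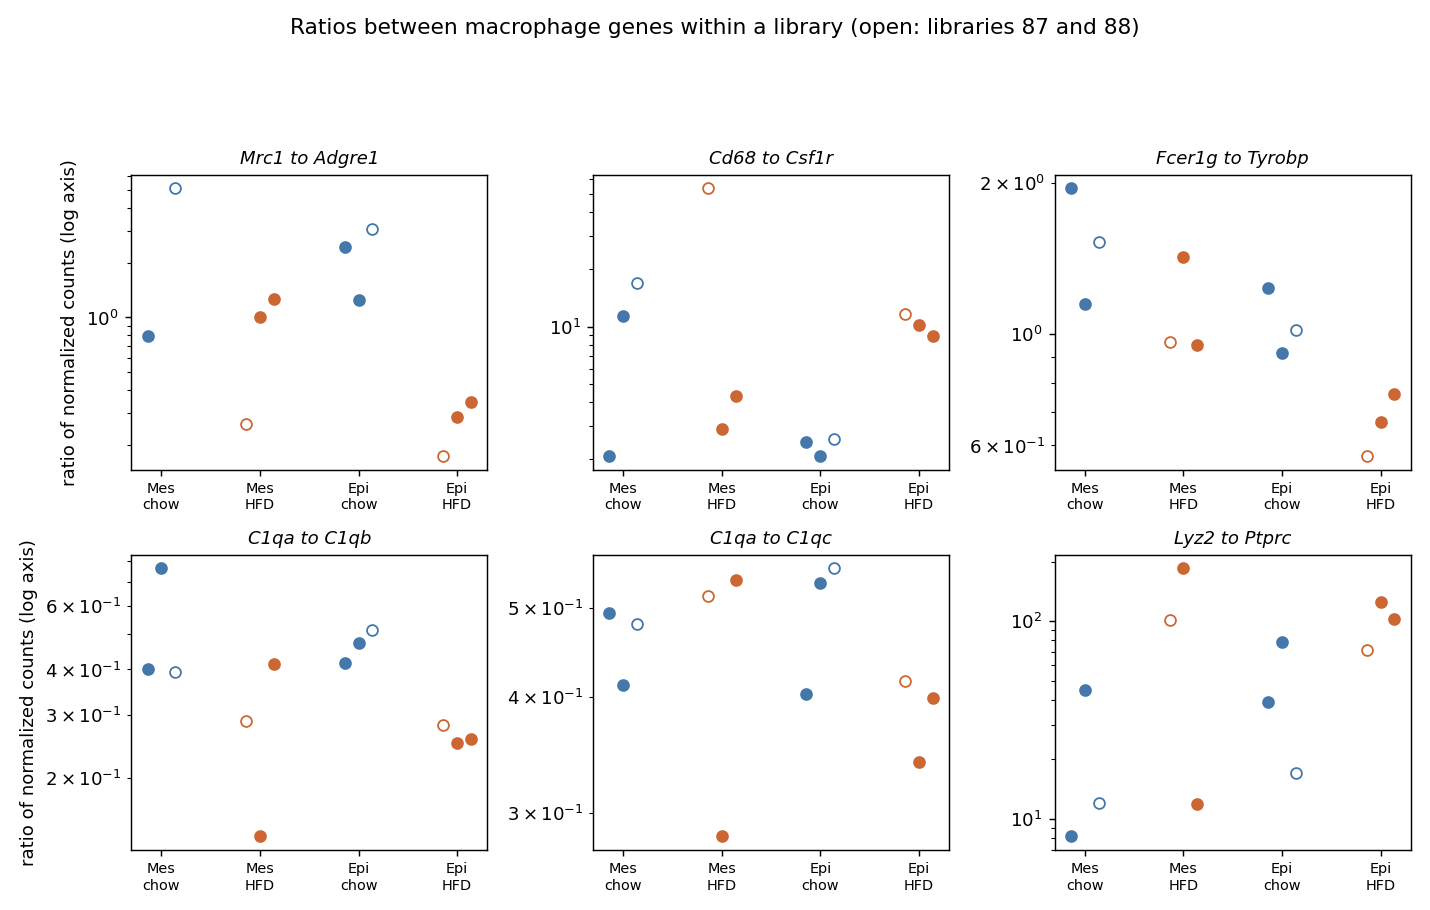
Ratio of normalized counts of 2 genes (the 10 macrophage genes and C1qc) within each library (log axis), by group; open points are libraries numbered 87 or 88, and 1 chow mesentery library without a read of Adgre1 is left out of the first panel. The 6 pairs were chosen after their values were seen: in epididymal fat the chow and high fat libraries do not overlap in the first 4 panels and overlap in the last 2, while the mesentery libraries overlap in all 6.

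Across the 12 libraries the genes varied together. The 45 pairs had a median Pearson correlation of 0.911 (0.762 to 0.988) of their log2 values, and of 0.808 (0.455 to 0.967) after the group means were removed. These are descriptions over libraries that share groups, scaling and cells, so no p is given. The genes most like the mean of the 10, of 12192 others with a mean of at least 50, were Sirpa (r = 0.990), an inhibitory receptor of myeloid cells, Fcgr3 (0.988), an Fc receptor that needs the Fcer1g adaptor, Ptafr (0.988), the receptor of platelet-activating factor, Clec12a (0.986), an inhibitory lectin, Laptm5 (0.985), a lysosomal protein of blood cells, and Rgs10 (0.985), a regulator of G protein signalling. Sirpa averaged 28.9 ± 27.4 normalized counts in chow mesentery, 102 ± 57.4 in high fat mesentery, 204 ± 143 in chow epididymal fat and 1586 ± 640 in high fat epididymal fat (SD, n = 3).

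The other genes of the pathways were taken from lists, and they are counted against the same shares of all genes. Of the 12 genes of the CSF1 axis (ligands, related receptors and lineage factors), 0 passed for diet in either tissue, with medians of 0.72 in epididymal fat and 0.67 in mesentery. In epididymal fat 9 of the 12 lay above 0 and 3 below. There 5 were higher without overlap, against 6.93% of all genes, and 1 lower, against 6.57%. Spi1, which encodes PU.1, differed by 3.31 (adjusted p = 0.158) and Csf2ra, a chain of the GM-CSF receptor, by 3.21 (adjusted p = 0.130), both without overlap. The ligand gene Il34 went the other way in epididymal fat. It was at 424, 367 and 372 normalized counts on chow and at 239, 251 and 229 on the high fat diet. Between tissues 4 of 12 were higher on chow, among them Il34 (3.34, adjusted p = 0.00205), and 4 of 12 on the high fat diet, among them Spi1 (3.66, adjusted p = 0.0208).

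Of 18 receptors and signalling partners of the ITAM adaptors, 17 were above 0 for diet in epididymal fat (median 2.14) and 1 passed. It was Trem2, a lipid-sensing receptor that signals through Tyrobp: it was at 97.9, 162 and 74.6 normalized counts on chow and at 5977, 2295 and 4874 on the high fat diet (5.25, adjusted p = 0.0176). Lat2 (4.20, adjusted p = 0.0551) and Cd300lb (4.99, adjusted p = 0.0652) came next. In mesentery 16 of 18 were above 0 (median 1.73) and 0 passed. Between tissues 1 of 18 was higher on chow (Cd300lb) and 6 of 18 on the high fat diet, Fcgr3 (4.22, adjusted p = 0.0245) and Syk (2.40, adjusted p = 0.0494) among them.

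Of 15 other complement genes and receptors, 1 was higher with diet in epididymal fat: C3, the central complement component, by 1.41 (adjusted p = 0.0489). C1qc, the remaining C1q chain, did not pass, at 1725, 4877 and 633 on chow and 13958, 7776 and 20015 on the high fat diet. In mesentery 0 passed. Between tissues 10 of 15 were higher on chow and 10 of 15 on the high fat diet. These include C1qc, C3ar1 and C5ar1, which myeloid cells express, but also C1ra, C1s1, C4b and Serping1, which fibroblasts express.

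Of 16 lysosomal and scavenger genes, 5 were higher with diet in epididymal fat, each without overlap: the proteases Ctsb (2.81, adjusted p = 0.00426), Ctsd (2.45), Lgmn (2.49) and Ctsl (1.50), and Grn (1.30, adjusted p = 0.0247), which encodes progranulin. In mesentery 0 passed. On the high fat diet 13 of 16 were higher in epididymal fat and 1, the phagocytic receptor Mertk, was lower (-0.84). On chow 6 were higher and Mertk again lower (-0.82).

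**Figure D4:**
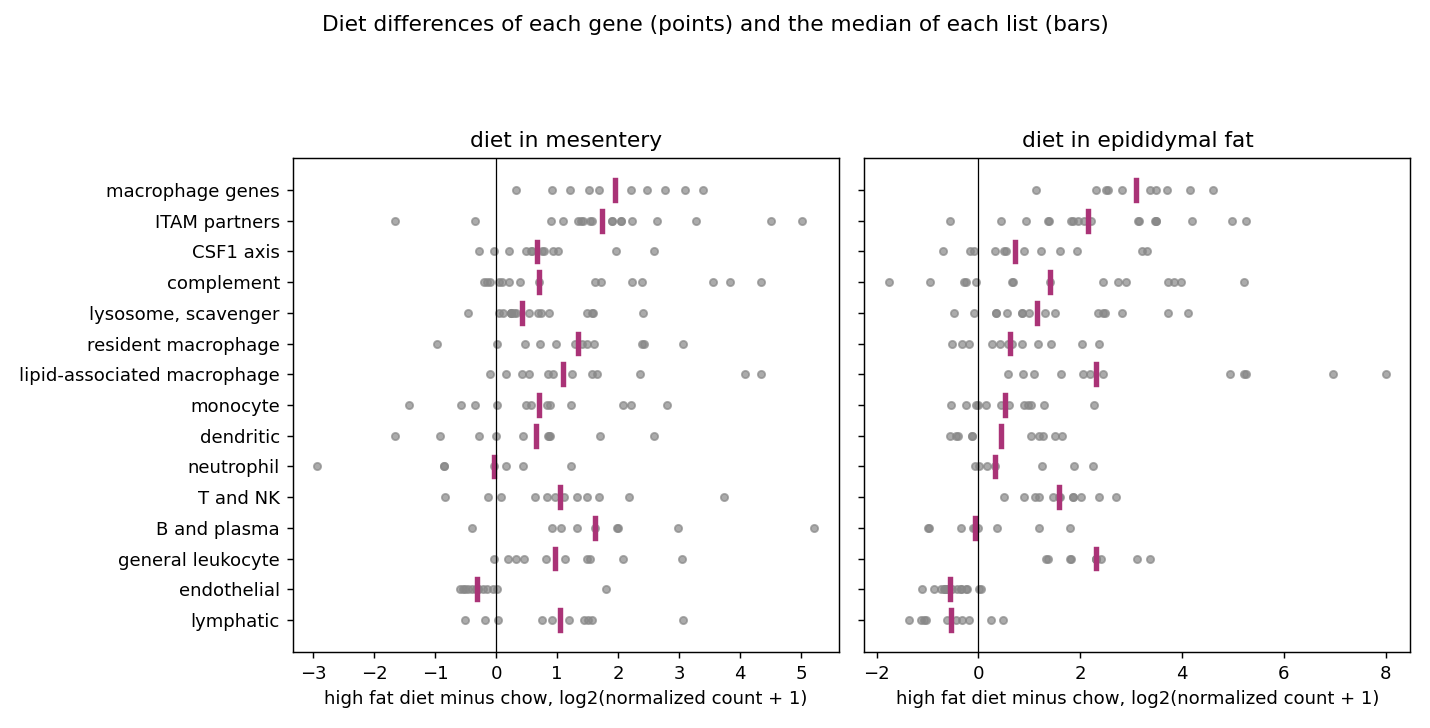
Diet difference of every tested gene (points, log2(normalized count + 1) scale) and the median of each list (bars) in mesentery (left) and epididymal fat (right). In epididymal fat the macrophage genes have a median of 3.09, the lipid-associated list 2.31 and the resident list 0.62, while the endothelial list lies at -0.56. In mesentery these medians are 1.94, 1.09, 1.35 and -0.30 in the same order.

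Markers of 2 macrophage subsets were counted separately, and the difference between the lists was not tested. Of 12 genes of lipid-associated macrophages, a subset known from obese fat, 12 were above 0 with diet in epididymal fat (median 2.31), all without overlap, and 6 passed: Atp6v0d2 (6.97, adjusted p = 0.0156), Trem2, Spp1 (4.94, adjusted p = 0.00839), Ctsd, Lipa (2.18) and Plin2 (2.06). Trem2 and Ctsd also belong to lists above, and adipocytes and endothelium also express several of these genes. Of 12 genes of resident macrophages, 0 passed in epididymal fat (median 0.62, with 9 above 0 and 3 below). In mesentery the order of the medians was reversed, at 1.09 for the lipid-associated and 1.35 for the resident list. There 11 of 12 genes of each list lay above 0 and 0 passed. Between tissues the resident list had 10 of 12 genes higher on chow and 1 lower (Gas6). The largest differences were those of Vsig4 (5.29), Lyve1 (5.23) and Cd209f (4.98). Vsig4 had no read in any chow mesentery library and was at 20.4, 118 and 22.5 normalized counts in chow epididymal fat. The size of its difference therefore depends on the 1 added to each count. On the high fat diet 8 genes of the resident list were higher and Gas6 lower. Lyve1 also marks lymphatic endothelium, whose list of 10 genes had 5 higher on chow, 0 on the high fat diet and 1 lower on each; its median diet difference in epididymal fat was -0.53.

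**Figure D5:**
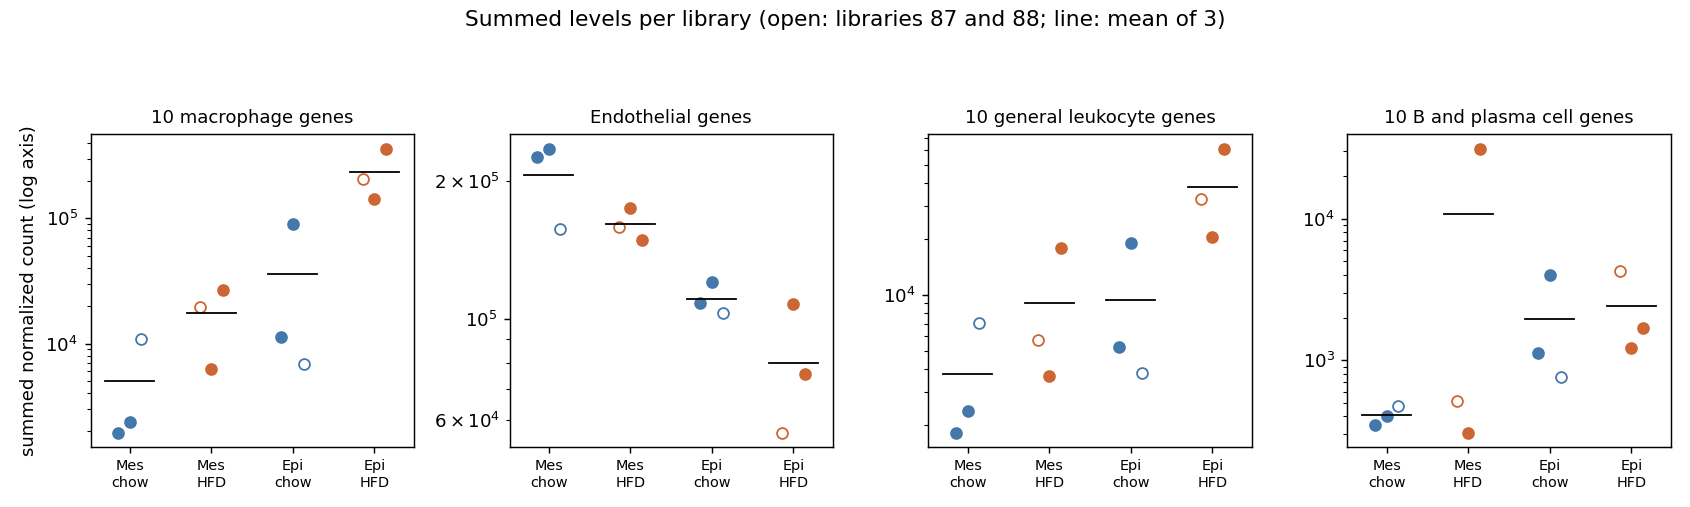
Summed normalized counts (log axis) of the macrophage genes and of 3 marker lists in each library, by group; open points are libraries numbered 87 or 88 and lines are means of 3. The macrophage sum is highest where the endothelial sum is lowest, in high fat epididymal fat, and high fat mesentery replicate C stands apart in the B and plasma cell genes.

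Markers of other cells were given the same tests. Of the 10 general leukocyte genes, 10 were above 0 with diet in epididymal fat (median 2.31) and 9 in mesentery (median 0.97), with 0 called in either. For diet in epididymal fat, 0 of 12 monocyte, 0 of 10 dendritic, 0 of 7 tested neutrophil, 0 of 9 mast cell, 0 of 12 T and NK cell and 0 of 9 B and plasma cell genes passed. Their medians were 0.53, 0.45, 0.32, -0.69, 1.59 and -0.06. In mesentery 0 of each of these lists passed as well, with medians of 0.70, 0.65, -0.04, 0.31, 1.04 and 1.62.

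Of 16 endothelial genes, 14 were below 0 with diet in each tissue and 0 passed (medians -0.56 in epididymal fat and -0.30 in mesentery). Between tissues 9 were lower and 1 higher in epididymal fat on chow, and 11 lower and 1 higher on the high fat diet; the higher one was Cldn5 on both. Per 100 normalized counts of the endothelial list, the macrophage genes summed to 0.866, 0.998 and 6.93 in chow mesentery, to 12.5, 3.62 and 18.0 in high fat mesentery, to 10.4, 74.2 and 6.70 in chow epididymal fat and to 364, 133 and 476 in high fat epididymal fat. With the libraries rescaled to the endothelial list, 4 of the 10 macrophage genes passed for diet in epididymal fat and 7 for tissue on chow. The median of all genes moved to 0.59 and 0.50 in these comparisons. Of 22238 genes, 344 and 5274 passed as higher, against 93 and 1627 without the rescaling. The added calls of macrophage genes cannot be told apart from this general shift.

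Stromal lists differed as well. With the high fat diet in epididymal fat, 3 of 10 fibroblast genes were higher (Col3a1, Lum and Mfap5; median 1.61). There 3 of 10 adipocyte genes (Adipoq, Cfd and Retn; median -1.08) and 1 of 10 mural genes (Kcnj8, -1.94) were lower. In mesentery 0 fibroblast and 0 mural genes passed and 1 adipocyte gene, Lep, was higher (3.71). For diet, 0 of the tested mesothelial, pancreatic and erythroid genes passed in either tissue. All 10 pancreatic genes were lower in epididymal fat on both diets, with medians of -11.15 (chow) and -10.32 (high fat), and 4 of 5 tested erythroid genes were higher on both. The part of these other cells in the values of the macrophage genes was not tested.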

How the data were processed

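Messenger RNA of sorted cells was measured by paired-end bulk RNA-seq in 12 libraries, grouped by the tissue and diet in the sample titles. The authors deposited one normalized count for each gene and library, a signal of at least 0. STAR 2.7.9a, featureCounts, Subread, DESeq2 1.34.0 and the build mm39 are named in the submitters' processing notes; annotation and strand are not given in the sources used here. Whole reads were recovered for 100% of the values (tolerance 1e-06), and the steps equalled DESeq2-type size factors within 2.8e-15. Every gene had at least 51 reads in all.

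Tests used limma 3.58.1 in R 4.3.3 on log2(normalized count + 1), a scale that understates changes of low genes, with eBayes and a trend, for genes with a mean of at least 10. A fit of 4 group means gave 5 comparisons, adjusted by the Benjamini-Hochberg method, with 0.05 as the threshold. The fit was tested on simulated data. Alternatives were edgeR 4.0.16 and DESeq2 1.42.0 on recovered reads, other pseudocounts (0.5 and 5), filters and scalings, blocks, number ranges and 12 fits without 1 library. Ratios were tested with scipy 1.17.1 and were chosen after the values were seen. Exon lengths came from GENCODE M21, promoters from RefSeq GRCm38.p6. Library totals were 8348897 to 25397963 reads, and single low genes such as Adgre1 in mesentery rest on few of them.

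The 10 genes and all 21 lists (4 pathways, 17 cell types) were chosen with earlier results of these data known. All 10 genes are named. Of a list, the counts, members past the threshold and at most 4 others with the largest differences are named. The genes most alike are the 6 with the highest correlation with the mean of the 10.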

Additional observations from a re-analysis of the deposited data

How the results depend on the processing

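The 10 macrophage genes and the count of all genes were recomputed under 27 alternatives, 12 of them without 1 library. The number of the 10 called for diet in mesentery (0) was 1 by DESeq2. For diet in epididymal fat (0) it was 2 with a mean of at least 50, 4 with libraries rescaled to the endothelial list, 2 by DESeq2, 1 with the number range as a covariate, 3 with the 2 groups alone, and 0 to 5 without 1 library. For tissue on chow (4) it was 7 with the endothelial rescaling, 2 by edgeR with the deposited size factors, 9 in libraries 50 to 53, where the median difference was 4.43, and 1 to 8 without 1 library. For tissue on the high fat diet (9) it was 5 by edgeR with TMM and 2 to 8 without 1 library. No alternative called any of the 10 for the interaction. Of all genes, diet in mesentery called 3, and 7 with a mean of at least 50, 1 by edgeR with TMM, 151 by DESeq2, 20 in libraries 50 to 53, 1 with the 2 groups alone and 1 to 36 without 1 library. Diet in epididymal fat called 122, and 68 with TMM, 362 with the endothelial rescaling, 29 and 62 by edgeR with TMM and with deposited size factors, 544 by DESeq2, 30 in libraries 50 to 53, 228 with the 2 groups alone and 24 to 169 without 1 library. Tissue on chow called 2843, and 5701 with the endothelial rescaling, 4507 in libraries 50 to 53 and 1512 to 3305 without 1 library. Tissue on the high fat diet called 1854, and 1203 with TMM, 7691 with the endothelial rescaling, 1021 by edgeR with TMM, 2887 by DESeq2 and 726 to 1747 without 1 library. The interaction called 1, and 3 with a mean of at least 50, 2 with the endothelial rescaling, 132 by DESeq2, 11 in libraries 50 to 53 and 1 to 18 without 1 library. The cause of these shifts was not tested.

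The sign turned for the interaction of Csf1r with a pseudocount of 5 (0.047) and the endothelial rescaling (0.10), and of Mrc1 with equal totals (-0.054). In libraries 50 to 53 it turned for Adgre1 (-0.13), Mrc1 (-0.99), C1qa (-0.11) and C1qb (-0.52). Without 1 library the mesentery diet difference of Ptprc ran from -1.35 to 1.84, and the interactions ran from -0.20 to 2.35 for Adgre1, -0.058 to 1.68 for C1qb, -0.96 to 0.56 for Csf1r and -0.61 to 0.91 for Mrc1. Rescaling to equal totals moved the share of higher calls among all genes from 76.2% to 63.8% for diet in epididymal fat, from 57.2% to 67.3% for tissue on chow and from 58.9% to 35.3% for tissue on the high fat diet. The endothelial rescaling moved it to 95.0%, 92.5% and 97.0%, and moved the median of all genes to 0.17 for diet in mesentery, 0.59, 0.50 and 0.96.

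The main tests did not pair libraries by letter or number, although the labels give each number to a mesentery and an epididymal library. Not every pair's deviations correlated above 0.1 (-0.68 to 0.44 by letter within epididymal fat, 0.03 to 0.58 by number on chow). With 3 pairs in each comparison, this cannot show that pairing is absent. With the letter as a replicate block, 0 of the 10 passed for diet in either tissue and 4 and 104 of all genes; with the number as a replicate block, 5 passed on chow, 9 on the high fat diet and 0 for the interaction, with 2816, 1890 and 2 of all genes. Libraries correlated best with their own letter or number in 3 of 6, 0 of 6, 5 of 6 and 2 of 6 cases, a hint from the data and not the design.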
